A study of Mus musculus with 2 samples.

Results

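The genes described here are 10 effectors and targets of the YAP/TEAD branch of Hippo signalling: Ccn1, Ccn2, Ankrd1, Amotl2, Lats2, Tead1, Tead3, Ajuba, Yap1 and Wwtr1. Peaks of Arid1b chromatin immunoprecipitation (ChIP-seq) were assigned to them where they lay in a gene or up to 10 kb from it, which took 29 of the 8318 peaks in the deposited list. Arid1b is a DNA-binding subunit of BAF, a SWI/SNF complex that uses ATP to move nucleosomes. Both libraries were made from cultured dental mesenchyme: wild-type C57BL/6 mice at postnatal day 3.5 to 7.5 gave primary cells from the apical end of the first lower molars, which were grown with 10% serum. The labels used here do not say how many mice gave the cells. One library was the Arid1b ChIP and the other was input chromatin with no antibody. There was 1 library of each, so no replicate check exists, no test between conditions can be made, and each value describes these 2 libraries. The series is titled for Arid1a and its design text names mice with a conditional Arid1a allele, but the samples analysed here are labelled Arid1b and wild type.

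Hippo signalling restrains growth through a kinase cascade that ends in the Lats kinases. These phosphorylate the coactivators Yap1 and Wwtr1 (also called TAZ), which keeps them out of the nucleus. When the cascade is off, for instance in cells spread on a stiff substrate or fed with serum, Yap1 and Wwtr1 enter the nucleus and bind the TEAD transcription factors at target genes. Ccn1, Ccn2 and Ankrd1 are classical targets. Lats2 and Amotl2 are targets that also feed back to hold the coactivators in check, and Ajuba is a LIM protein that binds and inhibits Lats kinases.

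Of the 10 genes, 9 had a peak of Arid1b by this distance rule, where 31.7% of all 21887 protein-coding genes had one. In the same 9 a peak reached to within 1 kb of an annotated end of the gene, where 22.2% of all protein-coding genes had one. Ankrd1, which encodes a nuclear ankyrin-repeat protein, was the exception, and the peak nearest to it lay 228820 bp away. The genes were listed with earlier results of these peaks known, so the counts of 9 describe the choice and are read as nothing more. The same holds for the counts of these genes below by position, fold or number of peaks.

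The promoter sequences below show where the peaks and the TEAD motif lie at the start sites of 6 genes. The first 3 have a peak inside the window, in the next 2 the window lies beside peaks, and the last belongs to Ankrd1, which has none. Each window holds the 250 bases before the start site and the 50 bases that begin with the start site. It follows RefSeq's GRCm38.p6 table (the assembly of mm10) and is written 5′ to 3′ along the gene. Capitals mark motif matches on either strand. The TEAD motif was searched as GGAATG, which reads CATTCC where it lies on the other strand. The GC box was searched as GGGCGG. The CCAAT box was searched by the letters of its name, and the TATA box as TATAAA. No letters of one match overlap another in these windows.
Ajuba, chr14:54577612-54577911, minus strand: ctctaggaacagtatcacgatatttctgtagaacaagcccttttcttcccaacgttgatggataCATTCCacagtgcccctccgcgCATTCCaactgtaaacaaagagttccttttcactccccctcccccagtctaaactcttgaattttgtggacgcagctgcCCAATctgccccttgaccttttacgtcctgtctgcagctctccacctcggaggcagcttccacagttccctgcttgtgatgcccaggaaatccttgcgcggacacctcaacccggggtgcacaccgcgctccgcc
Yap1, chr9:8004547-8004846, minus strand: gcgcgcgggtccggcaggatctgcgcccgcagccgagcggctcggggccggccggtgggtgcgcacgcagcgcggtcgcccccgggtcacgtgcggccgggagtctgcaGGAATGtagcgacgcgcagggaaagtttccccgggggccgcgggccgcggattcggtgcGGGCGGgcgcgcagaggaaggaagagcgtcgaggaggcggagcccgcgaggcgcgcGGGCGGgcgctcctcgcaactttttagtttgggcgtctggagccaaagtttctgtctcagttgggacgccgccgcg
Lats2, chr14:57746074-57746373, minus strand: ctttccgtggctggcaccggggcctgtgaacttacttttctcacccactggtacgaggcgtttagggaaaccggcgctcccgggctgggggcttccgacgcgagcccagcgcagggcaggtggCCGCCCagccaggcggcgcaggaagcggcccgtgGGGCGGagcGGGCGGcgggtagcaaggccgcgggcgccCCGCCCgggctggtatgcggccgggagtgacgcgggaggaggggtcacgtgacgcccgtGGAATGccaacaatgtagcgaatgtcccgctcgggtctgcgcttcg
Ccn1, chr3:145649936-145650235, minus strand: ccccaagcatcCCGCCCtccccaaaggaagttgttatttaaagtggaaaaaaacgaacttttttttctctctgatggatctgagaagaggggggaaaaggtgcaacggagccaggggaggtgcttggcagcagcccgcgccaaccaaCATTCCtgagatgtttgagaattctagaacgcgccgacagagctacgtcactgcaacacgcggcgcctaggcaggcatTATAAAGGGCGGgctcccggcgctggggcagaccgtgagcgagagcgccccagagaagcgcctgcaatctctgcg
Amotl2, chr9:102717554-102717853, plus strand: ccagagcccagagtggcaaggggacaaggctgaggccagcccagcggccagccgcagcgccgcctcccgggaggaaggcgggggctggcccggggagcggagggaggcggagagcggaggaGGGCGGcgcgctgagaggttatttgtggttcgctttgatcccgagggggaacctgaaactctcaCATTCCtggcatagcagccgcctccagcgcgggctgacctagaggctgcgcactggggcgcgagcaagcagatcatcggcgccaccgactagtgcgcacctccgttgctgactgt
Ankrd1, chr19:36119795-36120094, minus strand: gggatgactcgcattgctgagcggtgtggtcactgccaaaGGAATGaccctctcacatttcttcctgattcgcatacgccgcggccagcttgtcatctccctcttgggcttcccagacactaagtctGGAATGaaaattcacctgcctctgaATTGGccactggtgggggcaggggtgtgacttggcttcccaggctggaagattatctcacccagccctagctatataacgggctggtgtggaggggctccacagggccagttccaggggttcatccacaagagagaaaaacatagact

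In Ajuba the window is almost filled by a peak. The peak, at chr14:54577616-54577882, covered 267 of the 300 bases and both CATTCC matches, and its summit lay 84 bp upstream of the start site, within 1 bp of the middle of the CCAAT match. In Yap1 the peaks on both sides of the start site together covered 174 bases, and the summit of the upstream one lay 62 bp from the middle of the single GGAATG. In Lats2 a pair of peaks together covered 209 bases and reached all 4 GC boxes, one of them only at its edge, whereas the GGAATG just after the start site fell in the 91 bp between 2 peaks, 29 bp from one and 58 bp from the other. The window of Ccn1 held no peak, and its CATTCC lay 205 bp from the nearest peak edge on one side and 671 bp on the other. In Amotl2 the CATTCC lay 117 bp before the first peak. Ankrd1 carries 2 GGAATG matches in a window far from any peak.

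The letters of the TEAD motif occurred in the windows of all 8 genes that have an entry in the promoter table, where 15.5% of 17492 protein-coding genes with an entry have them. Ccn2 and Tead1 have no entry. Some limits apply to this count. The motif is 6 letters long, Tead3 has 3 start sites and Wwtr1 and Lats2 have 2 each, and several of these genes are known for TEAD sites near their starts, so the list is not a neutral sample. Of 11 other genes in a list of YAP/TAZ targets with an entry, 3 held the motif, namely Axl, Crim1 and Ptpn14. Among other genes with an entry in the further Hippo lists described below, 4 of 18 in the kinase cascade held it. So did 3 of 5 coactivator and DNA-binding partner genes and 2 of 5 angiomotin and LIM genes. Among genes with an Arid1b peak in a window, 10.8% held the motif in such a window. The share of all genes counts any of their windows, so the measures differ. Counted by window, the motif was in 9.97% of windows with a peak and in 13.6% of all windows. The matches fell at 13 distinct positions, of which 3 were under a peak, 2 in Ajuba and 1 in Yap1. A further 4 lay within 500 bp of a peak edge. A match shows letters only and not that a TEAD factor was bound.

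Each of the other motifs was found in fewer of the 8 genes. The GC box, bound by Sp and Klf factors, was in windows of 6 of the 8 genes, against 76.4% of genes with a peak in a window and 49.2% of all genes. The CCAAT box was in 2 of the 8, against 42.3% of all genes. TATAAA was in 1 of the 8, against 14.8% of all genes. That gene was Ccn1, where it lay directly before a GC box. The AP-1 motif TGANTCA was in 0 of the 8, against 8.12% of all genes, and the CArG box of serum response factor was also in 0, against 1.76%. AP-1 and serum response sites outside these windows were not searched.

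**Figure D1:**
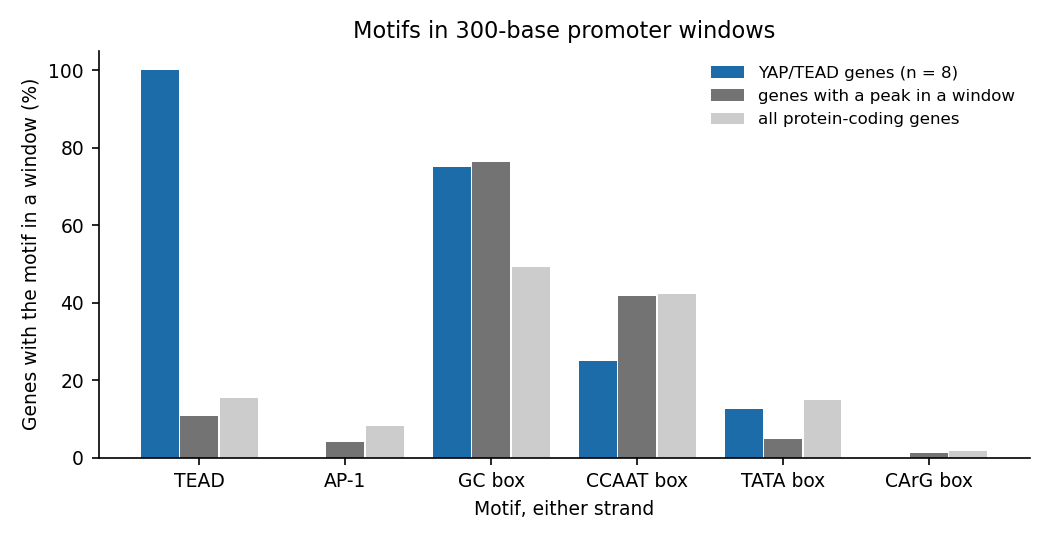
Share of genes whose 300-base promoter windows hold each motif on either strand, in percent: the 8 YAP/TEAD genes with a promoter entry, the 2234 protein-coding genes with an Arid1b peak in a window (counting those windows), and all 17492 genes with an entry. The TEAD motif is in all 8 genes and in 15.5% of all genes, while the GC box is in 6 of 8 and in 76.4% of genes with a peak in a window.

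Fold enrichment below is the authors' linear ratio of ChIP over the expected input level at the peak summit. Its 95% interval is the exact Poisson interval of the ChIP pileup, as solved from the fold and p-value of each peak, and it covers counting error only. The pileup is the number of fragments stacked at the summit. Over the 29 peaks it ranged from 30 to 65 with a median of 42, against a median of 38 over all 8318 peaks and a genome background of 8.68 in input. At this depth single folds are loose. The expected level was at the genome background in 14 of the 29 peaks (48.3%), as in 47.2% of all peaks, and its highest value at these genes was 13.0, inside Ccn1.

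Strongest among the 9 genes was Ccn2, at 6.82 (5.28 to 8.66), followed by Lats2 at 5.99 (4.56 to 7.73), Tead1 at 5.58 (4.20 to 7.26) and Ajuba at 5.47 (4.11 to 7.15). Tead3 reached 5.26 (3.93 to 6.90) and Ccn1 reached 5.06 (3.76 to 6.68). The coactivator genes came lower, Yap1 at 4.54 (3.32 to 6.08) and Wwtr1 at 4.13 (2.97 to 5.61), beside Amotl2 at 4.13 (3.02 to 5.51). The intervals of all 9 overlap one another, including those of Ccn2 and Amotl2. Overlap alone does not show that folds are equal. Differences between the genes were not tested, so their order is left unresolved. A peak of at least 5-fold was present at 6 of the 10 genes. Of all protein-coding genes 5.21% had one, that is 1140 of the 6943 with a peak. The strongest peaks of Lats2 and Ccn1 also lay inside another gene, and that of Tead3 lay beside the end of Rpl10a, as described below. The median of the strongest fold was 5.26 over the 9 genes and 4.03 over the 6943 protein-coding genes with a peak. Ccn2 stood above 96.4% of those genes and Amotl2 above 55.0%. The strongest fold is the highest of a gene's peaks. The 9 genes had a median of 3 peaks, against 1 over the 6943 genes. The part of peak number in these values was not tested.

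**Figure D2:**
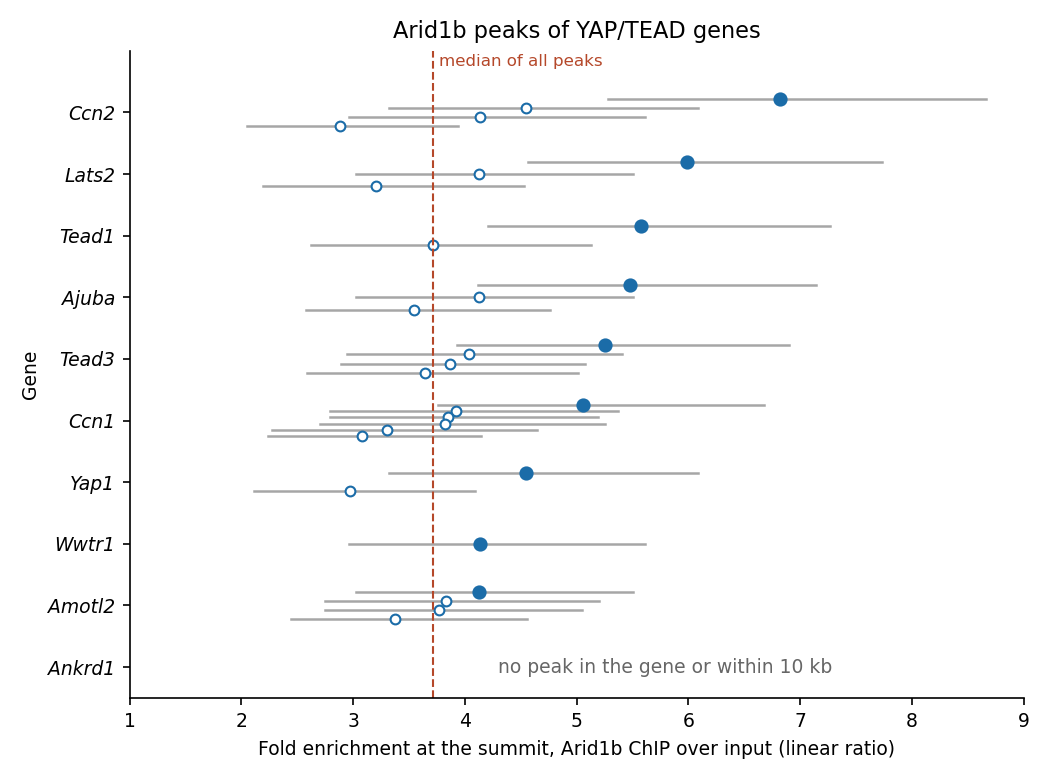
Fold enrichment (x axis, linear ratio) of every Arid1b peak in or within 10 kb of each gene, with bars for the exact Poisson 95% interval and a filled point for the gene's strongest peak. The dashed line is the median of all 8318 peaks, 3.72. Ccn2 has the highest point at 6.82, the intervals of the strongest peaks overlap, and Ankrd1 has none.

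As a set, the 29 peaks had a slightly higher median fold and width than the whole list, and this was not tested. Their median fold was 3.92 (quartiles 3.65 and 4.54), against 3.72 (3.30 and 4.32) over all peaks, and 20 of the 29 (69.0%) lay above the overall median, against 49.1% of all peaks. The interval of the fold lay wholly above the overall median in 6 of the 29 (20.7%), against 10.4% of all peaks. The 6 were the strongest peaks of Ccn2, Lats2, Tead1, Ajuba, Tead3 and Ccn1. Their median width was 374 bp, against 307 bp over all peaks. Widths of at least 1000 bp were found in 4 of the 29 (13.8%), against 4.48% of all peaks. These were 1256 bp upstream of Ccn1, 1200 bp in Ajuba, 1193 bp in Lats2 and 1030 bp beside Ccn2.

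Several peaks per gene were common in the set. At least 2 peaks were present at 8 of the 10 genes. Of all protein-coding genes 11.3% had as many, that is 2484 of the 6943 with a peak. At least 4 were present at 4 genes (Ccn1, Ccn2, Amotl2 and Tead3). Of all genes 2.39% had as many, and of genes with a peak 7.53%. Ccn1 had 6 peaks, a number reached by 0.708% of all genes, within a gene of 3015 bp and its flanks. When peaks closer than 500 bp were merged, the 29 became 18.

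**Figure D3:**
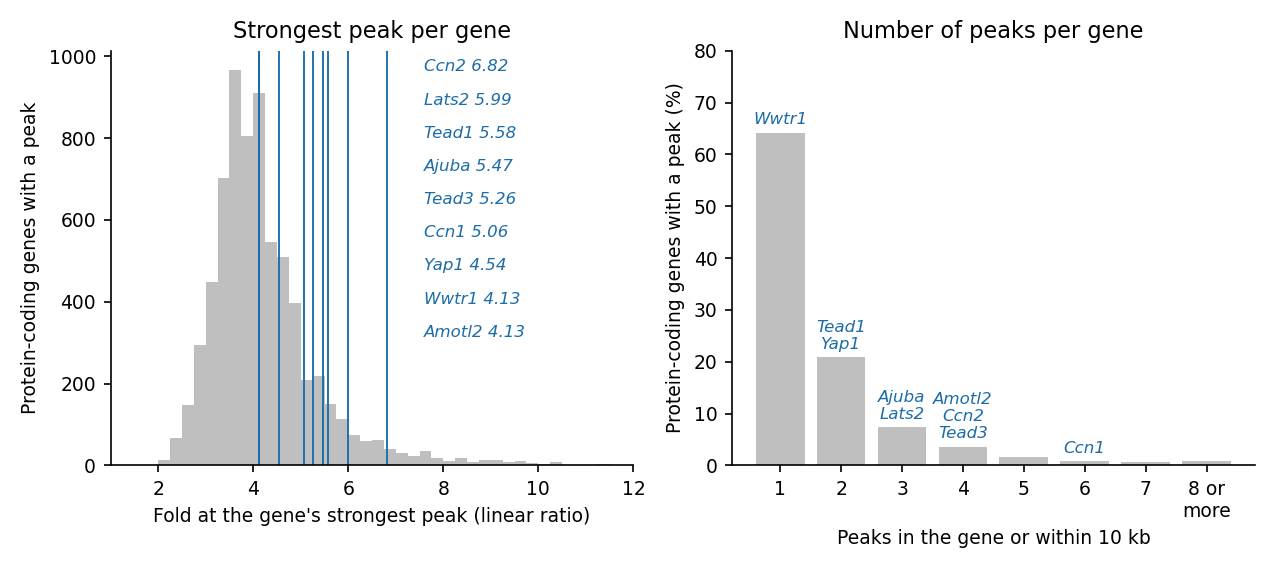
Left, the fold at the strongest peak of each of the 6943 protein-coding genes with a peak, with lines and names for the 9 YAP/TEAD genes, of which Ccn2 at 6.82 is highest and Amotl2 at 4.13 lowest. Right, the share of those genes by number of peaks, with the 9 genes named above their bars, from 1 peak at Wwtr1 to 6 at Ccn1.

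Among the secreted targets, Ccn1 and Ccn2 encode matricellular proteins that bind integrins and shape cell adhesion and matrix. Ccn1, at chr3:145646971-145649985 on the minus strand, carried peaks on both sides of its start site and beyond its 3′ end, over 8457 bp in all. Upstream, the folds were 3.92 at 866 bp, 3.85 at 2541 bp and 5.06 at 3685 bp from the start site. The last, at chr3:145653523-145653824, was the strongest of the gene. Inside the gene a peak of 3.08 (2.24 to 4.14) had its summit 570 bp downstream of the start, and beyond the 3′ end lay peaks of 3.30 and 3.82. The upstream peaks also lie inside Gm17501, a long noncoding RNA gene that starts beside Ccn1 on the opposite strand, so they cannot be assigned to one of the pair. No other peak occurred within 50 kb of Ccn1.

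Ccn2, at chr10:24595442-24598683, carried 4 peaks over 4963 bp. The strongest, at chr10:24599253-24600282, lay past the gene's high-coordinate end, with its summit 1195 bp from that end and 65 fragments at the summit. Another peak of 4.13 (2.97 to 5.61) lay between it and the gene. At the other end, a peak across the low-coordinate end had 2.88 (2.05 to 3.94) and one inside the gene, with its summit 1039 bp from that end, had 4.54 (3.32 to 6.08). The interval of the strongest peak does not overlap that of the peak at the low-coordinate end. That weaker peak also lies at the start of the long noncoding RNA gene Gm15270, with its summit 127 bp downstream of the start. The peak of 4.54 had its summit 678 bp upstream of the Gm15270 start. Neither of these peaks can be assigned to one gene alone by position. Here too no further peak lay within 50 kb.

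Of the feedback genes, Lats2 encodes the kinase that phosphorylates Yap1 and Wwtr1, and Amotl2 an angiomotin-like scaffold that binds them at junctions and actin. Lats2, at chr14:57689662-57746212 on the minus strand, had a pair of peaks around its upstream start site. The stronger, at chr14:57744893-57746085, had its summit 575 bp downstream of the start with a fold of 5.99, and the weaker, at chr14:57746177-57746537, had its summit 169 bp upstream with 4.13 (3.02 to 5.51). A peak of 3.20 (2.19 to 4.53) lay 26928 bp downstream of the inner start site, which had no peak within 1 kb. Its interval does not overlap that of the strongest Lats2 peak. The pair also lies inside Gm52140, a predicted protein-coding gene on the opposite strand.

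Amotl2, at chr9:102717091-102733418 on the plus strand, had all its peaks downstream of the start site, in the first part of the gene. Their summits were 220, 977, 2483 and 2932 bp from the start site, with folds of 3.77, 3.38, 4.13 and 3.83. These 4 values lie within one another's intervals. All 4 had a local input level above the genome background, between 9.45 and 11.4. There were 2 more peaks between 10 and 50 kb from the gene, the nearer of 4.03.

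Ajuba, at chr14:54567469-54577661 on the minus strand, had its peak of 5.47 on the start site itself, and then a broad peak of 4.13 (3.02 to 5.51) with its summit 734 bp downstream and one of 3.55 (2.58 to 4.76) at 1902 bp. A start site under a peak was found at 5.5% of all promoter entries and at 23.6% of those with a peak within 1 kb.

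Yap1 and Wwtr1, the paralogous coactivators, had 2 peaks and 1 peak. Yap1, at chr9:7931999-8004638, had a peak at chr9:8004689-8004928 with its summit 201 bp upstream of the start (4.54) and one at chr9:8004320-8004562 with its summit 197 bp downstream (2.98, 2.11 to 4.09). The start site lay in the 126 bp between them. Wwtr1, at chr3:57455644-57575910, had its peak of 4.13 at chr3:57575414-57575643, with its summit 341 bp downstream of the nearer of 2 annotated start sites. Both genes are long, 72640 and 120267 bp, and neither had a peak deeper inside.

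The TEAD genes encode the DNA-binding partners of the coactivators, and their peaks lay at different places. Tead1, at chr7:112679356-112906784, had peaks of 5.58 and 3.72 (2.62 to 5.13) near its low-coordinate end, with summits 622 and 1647 bp inside the gene. Tead3, at chr17:28331671-28350805 on the minus strand, had none within 1 kb of any of its 3 start sites. Its 4 peaks lay at the 3′ end, at least 18071 bp from the nearest start site. The strongest, at chr17:28331037-28331695, had its summit 201 bp beyond the 3′ end of Tead3 and 437 bp beyond the 3′ end of Rpl10a, a ribosomal protein gene that runs towards it. The peak of 3.87 (2.89 to 5.07) had its summit 365 bp downstream of the Rpl10a start, and that of 4.03 lay inside Rpl10a. The peaks counted for Tead3 thus lay at or inside Rpl10a as well, except the one of 3.65 (2.58 to 5.01) inside Tead3, and cannot be assigned to one of the 2 genes by position.

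**Figure D4:**
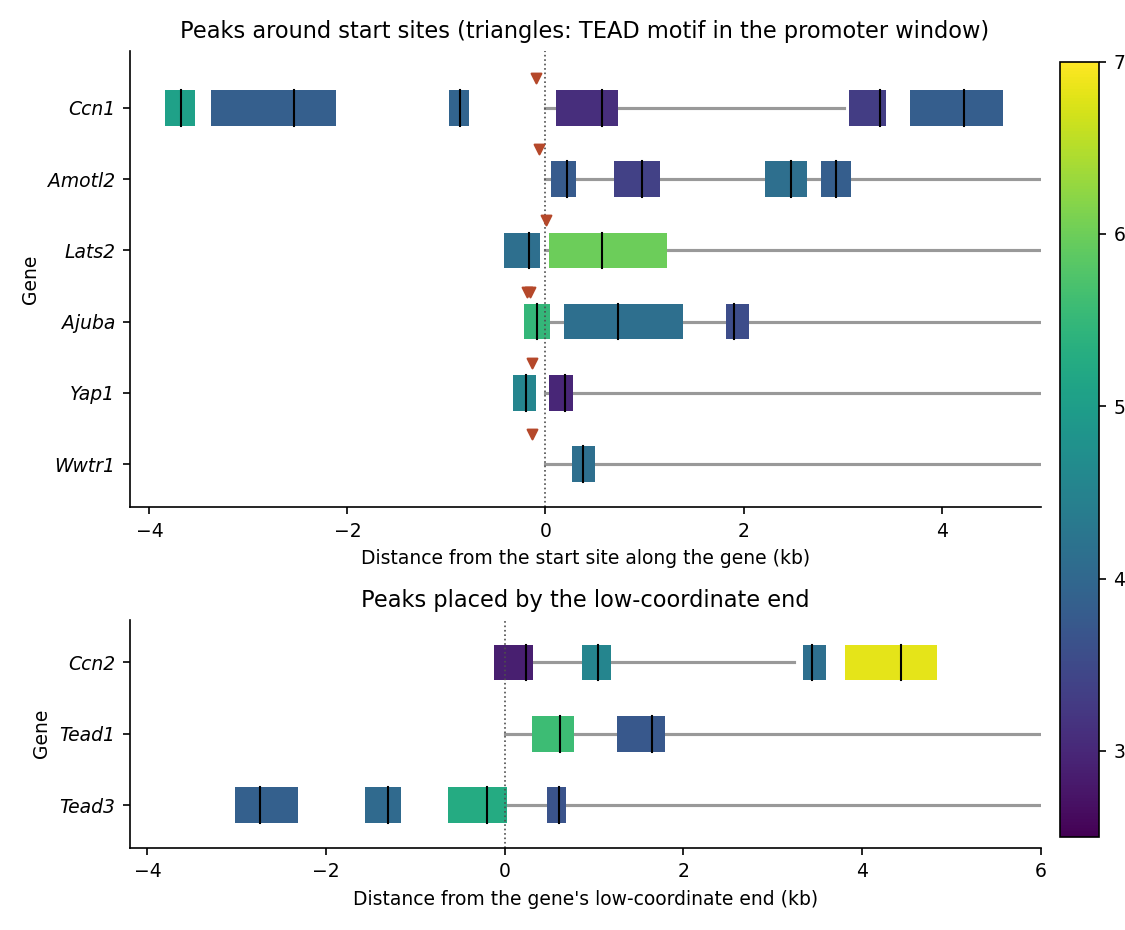
Peaks (bars, coloured by fold; black lines are summits) against distance in kb, with the gene as a grey line. Above, the 6 genes with a peak within 1 kb of a start site, placed by the start site along the gene (the outer one for Lats2 and Wwtr1; the Lats2 peak of 3.20 lies off the axis), with triangles for TEAD motif matches in the promoter window. Below, Ccn2, Tead1 and Tead3 by their low-coordinate end. Peaks flank the start sites of Ccn1, Lats2 and Yap1, cover that of Ajuba, and lie at the 3′ end of Tead3.

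Taking start sites, 6 of the 8 genes with an entry had a peak reaching to within 1 kb of one, where 23.9% of all genes with an entry did, and 3 (Ajuba, Yap1 and Lats2) had a peak in the 300-base window, where 12.8% did. The summit itself was in the window in the same 3 genes, against 4.6% of all genes with an entry. In Ccn1, Lats2 and Yap1 a start site lay between 2 peaks that each reached within 1 kb. This arrangement was found at 2.22% of all promoter entries and at 9.53% of those with a peak within 1 kb. These shares count entries, of which a gene can have several. Of the 11 summits within 1 kb of a start site of their own gene, 7 (63.6%) were downstream of it. Ccn2 and Tead1, without an entry, are not among the 11. In the whole list 74.7% of summits within 1 kb were downstream. These were measured from the nearest start site of any protein-coding gene, so the shares are not of the same measure. The windows of the 3 genes with a peak in them held 74.0% G and C in Yap1, 71.7% in Lats2 and 54.0% in Ajuba, and that of Ankrd1 held 54.7%. Promoters with a peak in the window had a median of 66.3%, and those without had 55.0%. Base composition moved with the presence of a peak, and its part in the folds was not tested.

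The distance rule was not close to any decision at these genes. The assigned peak farthest from its gene was the 5.06-fold peak 3538 bp from Ccn1, and the nearest peak left out lay 13784 bp from Lats2 with a fold of 2.73. The next were 25530 bp from Ajuba (4.54) and 29738 bp from Amotl2 (4.03).

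Beyond these 10 genes, Arid1b peaks were also looked up in wider lists of Hippo pathway genes. The lists were the kinase cascade and its upstream regulators, the coactivators and DNA-binding partners, the angiomotins and LIM proteins, and a set of YAP/TAZ targets. They were chosen with earlier results of these data known. They hold 59 different genes, 10 of them described above. Of the other 49, 21 (42.9%) had a peak within 1 kb of a gene end, where 22.2% of all protein-coding genes did. In the kinase cascade it was 12 of 22, highest at Frmd6, a FERM-domain regulator upstream of the kinases, at 6.51 (5.01 to 8.31), at Wwc2, a scaffold related to Kibra, at 6.00 (4.69 to 7.57), at Lats2, and at the phosphatase gene Ptpn14 at 4.95 (3.67 to 6.55). Lats1, the paralogue of Lats2, had 3.11 (2.24 to 4.20) at its end, and the core genes Nf2 and Stk3 had 3.51 and 4.13. Rassf1 had the highest peak of any gene of these lists, 9.03 (7.26 to 11.1), within 10 kb but not at its ends. Its strongest end peak was 4.86 (3.65 to 6.34). Other genes near the 9.03 peak were not looked up, so it is not assigned to Rassf1 alone. Lats1, Nf2, Stk3 and Rassf1, and below Vgll2, Vgll4 and the genes named as lacking a peak, were picked out after their values were seen.

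Among coactivators and DNA-binding partners, 6 of 10 had an end peak: Tead1, Tead3, Yap1, Wwtr1, and the TEAD cofactor genes Vgll3 at 4.96 (3.67 to 6.56) and Vgll2 at 3.20. Tead2, Tead4 and Vgll1 had no peak by the distance rule, and Vgll4, a cofactor that competes with Yap1 for TEAD, had 4 peaks away from its ends with a highest fold of 5.37. Of the angiomotin and LIM genes, 5 of 8 had an end peak, with Lpp at 4.81 (3.59 to 6.31), Zyx at 4.75 and Wtip at 3.82 beside Ajuba and Amotl2. Of 22 targets, 10 had one, with Ptpn14 and Foxf2, at 3.94 (2.95 to 5.16), next after Ccn2 and Lats2. Targets without any peak by the distance rule were Ankrd1, F3, Fjx1, Nuak2, Nt5e, Igfbp3, Dock5 and Ccdc80. The targets apart from the 10 genes had 6 of 17 (35.3%), nearer to the 22.2% of all genes than the kinase cascade at 11 of 21 (52.4%), and the difference between these lists was not tested.

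**Figure D5:**
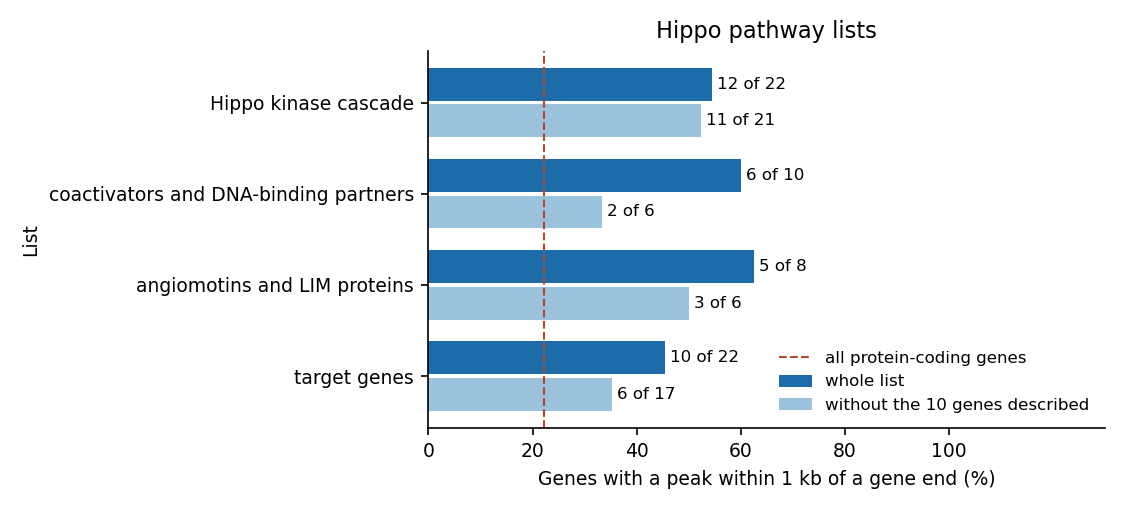
Genes where a peak reaches to within 1 kb of a gene end, in 4 Hippo pathway lists, in percent of the list, for the whole list and without the 10 genes described. The dashed line is the 22.2% of all protein-coding genes. The whole lists range from 10 of 22 targets to 5 of 8 angiomotin and LIM genes.

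The labelled cell type was set against marker genes by the position of peaks, which does not measure expression. Of 10 dental mesenchyme markers, 8 had an end peak, highest at Dlx2 with 7.95. Prrx1 had peaks only away from its ends, and Lhx6 had none by the distance rule. None of 8 epithelial, 6 endothelial and 7 blood and immune markers had one, where 22.2% of all protein-coding genes did. By the 10 kb rule, which 31.7% of all genes met, 1 marker of each of these lists had a peak, namely Esrp1 (highest fold 4.34), Erg (3.82) and Cd68 (5.39). The marker lists were chosen with earlier results of these data known. Their counts therefore describe the lists and are not a test of the cell type.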

How the data were processed

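Arid1b ChIP and input chromatin of cultured dental mesenchyme cells were sequenced, 1 library each. Per the submitters' processing notes, which state no roles or parameters, MACS2 2.1.1, Bowtie2 2.2.5, FastQC 0.11.8 and Picard were used with build mm10. The number of reads in either library is not given here. The deposited narrow peak list gives for each of 8318 peaks the authors' fold enrichment (a linear ratio), -log10 p-value, -log10 q-value, summit offset and a score. The score, as deposited, repeats the -log10 p-value (times 10, decimals dropped, in 100% of peaks) and was left aside. All folds, p and q values are the authors'.

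Summit pileups were recovered as whole numbers that solve the authors' fold (1 added to pileup and expected level) and the Poisson p-value, with a largest error of 0.000162 in -log10 p over the deposited peaks. The recovery step was also tested on simulated data. Exact Poisson 95% intervals hold the expected level fixed and cover counting error only. Fragments need not be independent molecules.

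Gene ends came from RefSeq GRCm38.p6 and start sites from its promoter table, which holds 8 of the 10 genes. Any part of a peak counted. Coordinates are 1-based. Named genes were the 10 genes with all peaks, up to 4 genes of highest end fold in each list, and neighbours of the 10 genes' peaks. Other genes of the lists (Lats1, Nf2, Stk3, Rassf1, Vgll2, Vgll4, Axl, Crim1, the markers and those named as lacking a peak) were chosen after their values were seen. Genes, lists and alternatives were chosen with earlier results of these data known. Alternatives were stricter q and fold, other windows, summit only, merging, and input at background. Python 3.11.15, pandas 2.3.3 and scipy 1.17.1 were used.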

Additional observations from a re-analysis of the deposited data

How the results depend on the processing

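With 1 ChIP and 1 input library no replicate could be left out. No paired analysis was possible because each group has 1 library. Ankrd1 stayed without a peak under every alternative, windows of 50 kb included. This was fixed in advance, since no alternative adds peaks and the nearest peak lay 228820 bp away. With -log10 q of at least 10, the peaks of the 10 genes fell to 15, against 29, and the wider Hippo lists had 18 genes with an end peak, against 30. With a fold of at least 5 there were 6 peaks, 5 of the 10 genes with an end peak and 7 genes of the wider lists, and Amotl2, Yap1 and Wwtr1 had none. With input at the genome background 14 peaks were left, and Amotl2 and Tead3 had none. Merging peaks closer than 500 bp gave 18. These settings keep fewer peaks by construction. The number of genes with a peak within 10 kb ranged from 6 to 9 over the alternatives. Without the 1 added to pileup and expected level, the strongest folds ranged from 4.44 at Amotl2 to 7.49 at Ccn2, within their intervals. These folds use the same pileup and expected level as the intervals, so lying within them is no independent check. Pileups of 30 to 65 fragments limit how finely peaks can be ranked.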
